A study of Mus musculus with 14 samples.

Results

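Zfp genes carry the mouse symbol for zinc finger protein followed by a number, and most belong to the C2H2 family, the largest family of DNA-binding proteins in mammals. They encode strings of fingers, small loops held by a zinc ion between a pair of cysteines and a pair of histidines, each of which reads a few bases of DNA. Many also carry a KRAB domain, which binds TRIM28 (KAP1), and TRIM28 brings the histone methyltransferase SETDB1 and HP1 proteins to silence the bound site, often a retrotransposon or an imprinted locus. Kmt2a encodes MLL, a methyltransferase of histone H3 lysine 4 at active promoters, and Men1 encodes menin, which binds MLL.

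The genes were the rows of the Kmt2a knockout table whose deposited type was protein-coding and whose symbol began with Zfp and a digit. That rule found 59 genes among 3956 rows, of which 3321 were protein-coding. RNA of mouse lung was sequenced in 3 Kmt2a knockout (Kmt2a KO) and 3 wild-type (WT) samples, and in 4 Men1 knockout (Men1 KO) and 4 wild-type samples. The labels give no strain, age, sex, Cre driver or deleted exon for any group, and the promoter or cell type behind either deletion is not given in the sources used here. Tissue and source are labelled lung, whereas the extraction text names macrophages of the peritoneal cavity. Titles carry a different number for each sample, which reads like an animal number, but no label says that the samples are separate animals. The p values therefore measure the spread between these samples.

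Epithelial genes of the lung were abundant in the Kmt2a table. Of 13 lung epithelium markers, 8 had a row, with wild-type means of 1958770 normalized counts for the club cell gene Scgb1a1 and 26526 for the surfactant gene Sftpa1. Of 10 peritoneal macrophage markers 3 had a row (Adgre1, Cd68 and Lyz2, which other macrophages also carry), while Gata6 and Timd4 had none. That table lists only genes with an adjusted p below 0.05, so a marker without a row may still be expressed. The numbers of markers with a row therefore do not tell which tissue was used. The tables used here list neither of the deleted genes, Men1 and Kmt2a, and no check of genotype on those genes was possible. The Kmt2a table holds no value per library, only a mean of normalized counts per group, printed with 15 digits. Whole reads of 3 libraries a group were recovered from those digits for all 59 Zfp genes. Within a group these libraries go by the letters a, b and c, since they cannot be tied to a title. Summed over the 3644 rows with recovered reads, the libraries held 2016869 to 3250899 reads, and the 59 Zfp genes held 23557 to 30581. All 3 knockout libraries were deeper than all 3 wild-type libraries (size factors of 1.07 to 1.18 against 0.817 to 0.960).

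The markers of several cell types differed between the same libraries. All 9 heart muscle markers with a row (of 10) were lower in the knockout, at a summed mean of 9995 normalized counts against 68871 in the wild type. All 4 red cell markers (of 7) were lower, at 18479 against 110294, and all 4 adipocyte markers (of 6) were lower, at 306 against 1377. Leptin (Lep) was at 0 in every knockout library and in 1 wild-type library, and the groups overlapped for all 4 adipocyte markers. The adipocyte sum leaned on wild-type library a, where Plin1 stood at 450 normalized counts against 7.72 and 30.6 in the others. All 6 markers of lung macrophages (of 8) were higher, at 26110 against 4255, and of the epithelial markers 6 were higher and 2 lower. Their part in the Zfp values was not tested. In such bulk RNA, fewer cells of a type and less RNA per cell cannot be told apart.

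Zfp genes moved in both directions, more of them down than up, and mostly by less than 2-fold. In the Kmt2a knockout 25 were higher and 34 lower, with an adjusted p below 0.05 for each in the authors' deposited table, which lists only genes past that threshold. Higher genes made up 42.4% of the Zfp genes, 50.5% of every row and 54.5% of the protein-coding rows, and lower genes 57.6% against 49.5% of every row. The median log2 ratio of group means, knockout over wild type with 1 added to each mean, was −0.37 for the Zfp genes and 0.32 for every row. Because the threshold leaves out ratios near 0, a signed median jumps with the direction that holds more genes. The 2 medians therefore largely restate the direction counts. In size alone the median was 0.75 for the Zfp genes, 0.89 for the protein-coding rows and 1.01 for every row. A change of at least 2-fold was seen in 9 higher and 9 lower Zfp genes, where every row gave 23.0% higher and 27.5% lower. That is 30.5% of the Zfp genes in either direction, against 44.4% of the protein-coding rows. No library of one group overlapped the other for any of the 59, which was also so for 97.0% of all rows with recovered reads, since the table holds only selected genes. An edgeR quasi-likelihood test on the recovered reads gave 42 of the 59 (71.2%) a p at or below the largest p of the authors' calls, 0.00917, against 69.5% of all rows tested.

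**Figure D1:**
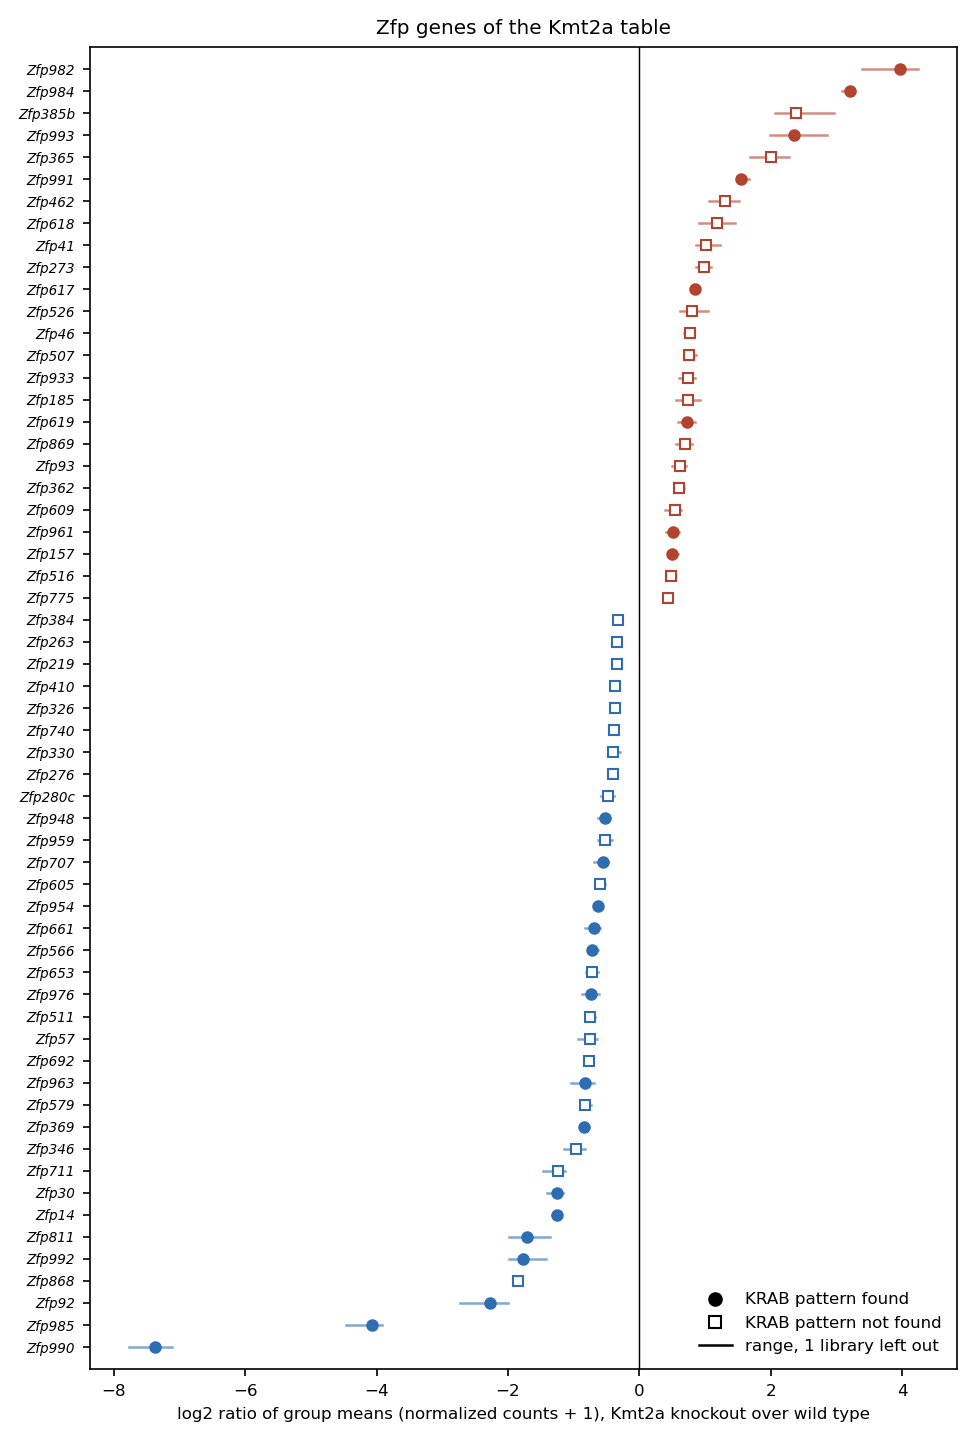
Log2 ratio of group means (Kmt2a knockout over wild type, normalized counts with 1 added) for each of the 59 Zfp genes; lines span the ratios with 1 of the 6 libraries left out, and filled circles mark genes with a KRAB pattern. The 25 higher genes (red) run up to 3.98 for Zfp982 and the 34 lower genes (blue) down to −7.38 for Zfp990. The median size of the log2 ratio is 0.75.

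How many Zfp genes the table holds is close to what it holds of other genes. The GENCODE annotation of the same build lists 394 protein-coding genes that meet the symbol rule, and 59 of them (14.97%) have a row, against 3308 of 21951 annotated protein-coding genes (15.07%). The share differed by chromosome. On chromosome 4, 12 of 30 annotated Zfp genes had a row (40.0%), 9 higher and 3 lower. Chromosome 7, with 92 annotated Zfp genes, had 11 in the table, 4 higher and 7 lower. On chromosome 17, 4 of 46 had a row (Zfp811, Zfp57, Zfp948 and Zfp959), and all 4 were lower. On the X chromosome 4 of 9 had a row, and Zfp185 alone was higher. These shares are descriptions, with no test.

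**Figure D2:**
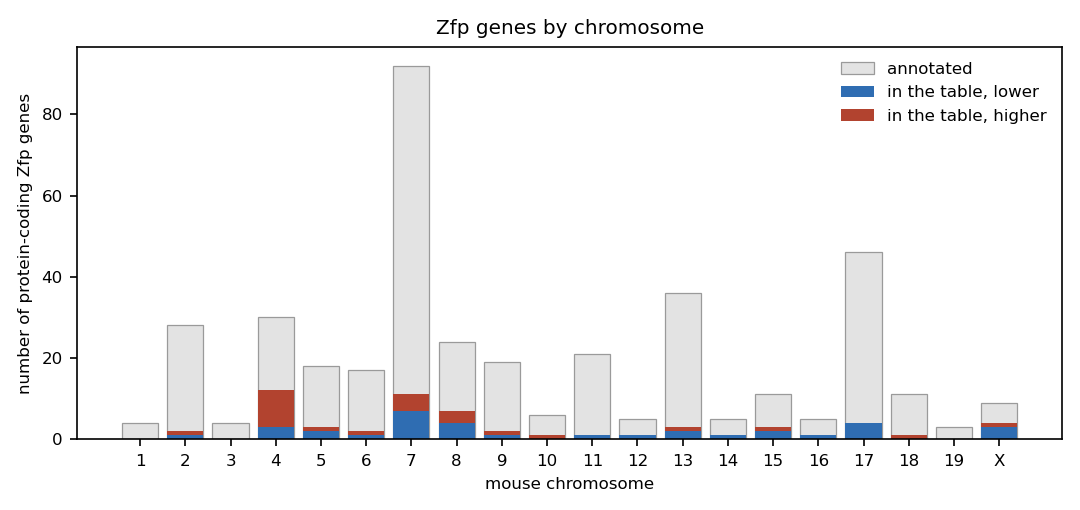
Number of annotated protein-coding Zfp genes on each mouse chromosome (grey bars) and of those with a row in the Kmt2a table, lower (blue) or higher (red) in the knockout. Chromosome 4 has 12 of its 30 genes in the table, 9 of them higher, and chromosome 17 has 4 of 46, all lower.

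The 4 largest differences (Zfp990, Zfp985, Zfp982 and Zfp984) sat in one cluster on chromosome 4. Clusters were defined as runs of at least 3 Zfp genes of the table with neighbouring starts no more than 1 Mb apart. The chromosome 4 cluster, chr4:145510759-147848366 (GRCm38), held 8 genes over 2.34 Mb: Zfp990, Zfp992, Zfp993, Zfp991, Zfp982, Zfp985, Zfp984 and Zfp933. Of these, 5 were higher and 3 lower, and higher and lower genes lay side by side. The annotation lists 18 protein-coding Zfp genes in the interval. Clusters of KRAB zinc finger genes on this chromosome are known in the mouse for repressing retrotransposons. The KRAB pattern was found in 7 of the 8, all but Zfp933.

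Promoters of 3 neighbours in this cluster are shown because the genes share much of that sequence and differ in direction: Zfp982 and Zfp984 were higher and Zfp985 was lower. Each runs from 250 bases before to 50 bases after the annotated start, 5′ to 3′ on the gene's strand, from RefSeq (GRCm38.p6). They lie at chr4:147492167-147492466 (plus strand), chr4:147553027-147553326 (plus strand) and chr4:147809739-147810038 (minus strand). Capitals mark a run of 20 letters, TATTGGGCGGGTCCAGAAGG, that all 3 hold.

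Zfp982: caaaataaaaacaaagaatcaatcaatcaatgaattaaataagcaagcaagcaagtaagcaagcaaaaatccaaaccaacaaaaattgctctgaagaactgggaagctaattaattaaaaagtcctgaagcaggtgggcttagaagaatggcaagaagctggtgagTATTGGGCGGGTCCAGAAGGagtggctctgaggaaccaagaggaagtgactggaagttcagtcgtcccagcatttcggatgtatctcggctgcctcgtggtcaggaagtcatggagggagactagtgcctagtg
Zfp985: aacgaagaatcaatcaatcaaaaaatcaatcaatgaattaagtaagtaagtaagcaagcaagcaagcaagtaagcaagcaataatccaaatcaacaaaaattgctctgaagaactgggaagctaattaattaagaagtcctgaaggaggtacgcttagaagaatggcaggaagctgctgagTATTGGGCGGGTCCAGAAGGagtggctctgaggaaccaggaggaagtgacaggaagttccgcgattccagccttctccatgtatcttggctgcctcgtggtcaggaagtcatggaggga
Zfp984: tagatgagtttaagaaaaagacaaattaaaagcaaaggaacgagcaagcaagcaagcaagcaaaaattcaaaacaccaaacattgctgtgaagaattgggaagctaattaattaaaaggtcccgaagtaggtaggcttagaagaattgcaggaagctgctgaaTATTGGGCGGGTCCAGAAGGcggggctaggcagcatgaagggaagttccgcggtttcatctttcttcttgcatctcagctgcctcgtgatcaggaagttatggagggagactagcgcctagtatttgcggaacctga

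In global alignments the promoters of Zfp982 and Zfp985 were identical in 82.6% of columns, those of Zfp982 and Zfp984 in 73.8%, and those of Zfp985 and Zfp984 in 70.2%. Searched on both strands, the 20-letter run occurred in 8 of the 32851 promoters of the RefSeq table (0.0244%). Those belong to Zfp982, Zfp984, Zfp985, Zfp600, Zfp980, Zfp988, Rex2 and Gm13212, of which the 3 shown have a row in the Kmt2a table. The run contains GGGCGG, the core of the GC box, and overlapping it the reverse complement of CCAAT. On either strand GGGCGG occurs in 35.7% and CCAAT in 37.4% of all promoters of this length.

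Zfp982 was read in the knockout alone. Its normalized counts were 8.50, 10.5 and 25.2 in knockout libraries a, b and c, from 49 reads in all, and 0 in every wild-type library. Against a floor of 3 reads over the wild-type group (a mean of 1.12 normalized counts), the level was at least 13.1-fold higher in the knockout. The bound was 8.46-fold without knockout library c, the highest of its group, and 8.44-fold and 8.67-fold without wild-type libraries a and b, which raises the floor. The authors' deposited table gives it an adjusted p of 0.000461.

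Zfp985, the next Zfp gene of the table, showed the opposite. It stood at 24.99, 18.7 and 19.6 normalized counts in the wild type and at 0, 0 and 0.933 in the knockout, where a single read was found against 57. The wild-type level was 67.8-fold that of the knockout, with a 95% exact interval of 12.2 to 2680 that covers counting error only, and the adjusted p in the authors' deposited table is 8.48e-05. Without knockout library c, which holds that read, the knockout is at 0 and the level was at least 16.3-fold lower there. The groups lay far apart, with no wild-type library below 18.7.

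Zfp984 rose the most among genes with reads in every library. Its normalized counts were 327, 366 and 322 in knockout libraries, against 29.2, 38.6 and 39.2 in those of the wild type, a log2 ratio of 3.21 and an adjusted p of 3.07e-40 in the authors' deposited table. The groups were far apart: the lowest knockout library was at 322 and the highest wild-type library at 39.2.

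Zfp990, the first gene of the cluster, was close to absent from the knockout. It stood at 288, 153 and 209 normalized counts in the wild type and at 0, 0 and 0.933 in the knockout, 587 reads against 1. The wild-type level was 698-fold that of the knockout, with a 95% exact interval of 125 to 27550 for counting error, and the authors' deposited table gives an adjusted p of 2.91e-12. Without knockout library c, which holds the single read, it was at least 168-fold lower in the knockout. Of the 100-base windows in its transcripts, 1.63% also occur in transcripts of other genes, the smallest of the shares in this cluster after that of Zfp933.

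Zfp992, the next Zfp gene of the table, was also lower, by less. It stood at 57.8, 78.7 and 70.9 normalized counts in the knockout and at 343, 163 and 209 in the wild type, a log2 ratio of −1.77 (adjusted p 7.47e-06 in the authors' deposited table). Wild-type library a was the highest of its group, as it was for Zfp990, and without it the log2 ratio was −1.42.

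Zfp993 and Zfp991 were higher in the knockout. Zfp993 stood at 15.3, 40.2 and 26.1 normalized counts against 2.08, 7.72 and 3.67, a log2 ratio of 2.36. Zfp991 stood at 99.5, 133 and 132 against 39.6, 37.5 and 45.3, a log2 ratio of 1.55. The groups were apart in both genes, as in 97.0% of all rows with recovered reads. Reads of these genes are hard to assign to one gene: 71.9% of the 100-base windows of Zfp993 and 73.8% of those of Zfp991 occur in other genes' transcripts. The pseudogene Znf41-ps, which shares the most windows with Zfp991, was also higher, at a log2 ratio of 2.57. For Zfp992 the shared portion was 28.6% and for Zfp984 31.2%, while for Zfp982 it was 2.95% and for Zfp985 1.92%.

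Zfp933, at the far end, changed the least. It stood at 226, 219 and 255 normalized counts in the knockout and at 147, 160 and 111 in the wild type, a log2 ratio of 0.74 (adjusted p 0.00619 in the authors' deposited table). None of its 100-base windows occurs in another gene.

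**Figure D3:**
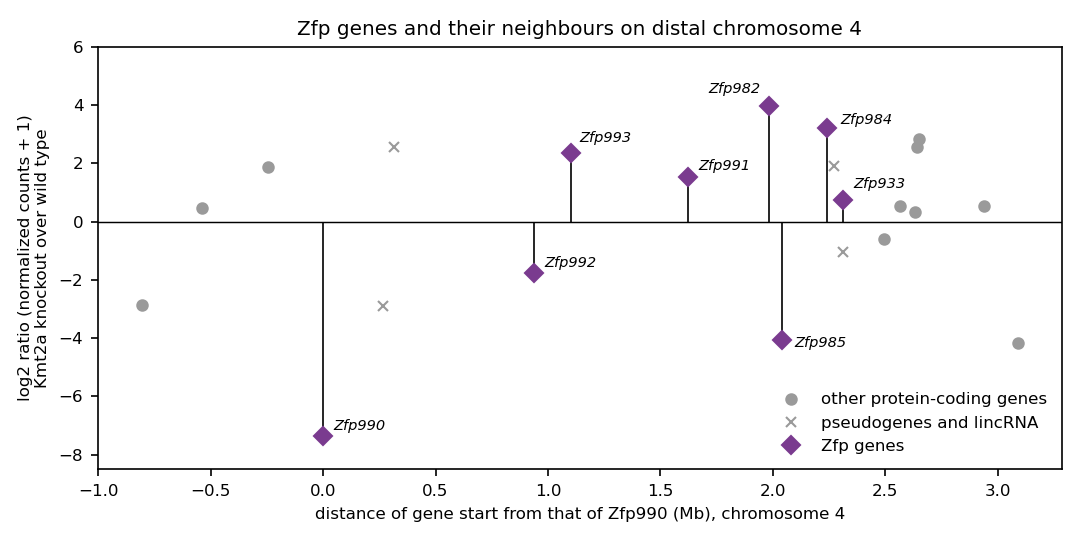
Log2 ratio of Zfp genes (purple diamonds) and of other genes of the Kmt2a table within 1 Mb of the cluster (grey circles for protein-coding genes, crosses for pseudogenes and a lincRNA), against distance from the start of Zfp990 in Mb. Higher and lower Zfp genes lie in the same interval, from −7.38 for Zfp990 to 3.98 for Zfp982, and no other protein-coding gene of the table lies between them.

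Between the first and last of the 8 genes, the table holds no other protein-coding gene and 4 other rows: the pseudogenes Gm13243 and Rps19-ps3, lower, and Znf41-ps and the lincRNA Gm20707, higher. Within 1 Mb on either side it holds 10 protein-coding genes, 7 higher and 3 lower. Among them Fbxo2 had a log2 ratio of 2.86 and Masp2, a protease of the lectin complement pathway, one of −4.18. These neighbours lie outside the Zfp set and were named after their values were seen. Without the 8 genes of the cluster, the other 51 Zfp genes counted 20 higher and 31 lower, with a median size of 0.73 on the log2 scale, and 21.6% of them changed at least 2-fold.

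Smaller clusters were found on chromosomes 7 and 8. On chromosome 7, chr7:29783998-30090527, the table holds 3 of 11 annotated Zfp genes, and Zfp30, Zfp14 and Zfp566 were all lower. Zfp30, a KRAB gene that is known in the mouse lung as a regulator of the neutrophil chemokine CXCL1, stood at 55.3, 60.3 and 74.7 normalized counts in the knockout and at 118, 169.7 and 169 in the wild type. Its log2 ratio was −1.25, with an adjusted p of 8.83e-05 in the authors' deposited table. Zfp14 stood at 168, 150.4 and 173 against 352, 417 and 405, the same log2 ratio of −1.25 at an adjusted p of 3.05e-11 in the authors' deposited table. Zfp566 had 38.3, 45.5 and 47.6 against 76.0, 73.8 and 67.3, a log2 ratio of −0.71. In all 3 the knockout libraries stayed below the wild type, and 97.0% of all rows with recovered reads likewise had groups without overlap. Of the 17 protein-coding rows within 1 Mb of this cluster, 8 were higher and 9 lower.

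The chromosome 8 cluster, chr8:69610857-69749970, spans 0.139 Mb and holds Zfp868, Zfp869 and Zfp963, all on the minus strand. Their RefSeq promoters (GRCm38.p6) are shown because neighbours moved in opposite directions here too. They lie at chr8:69625499-69625798, chr8:69716853-69717152 and chr8:69749913-69750212, and capitals mark each CCAAT on the gene's strand. The promoter given for Zfp869 is 6178 bases from the gene start in the deposited table, so it may not be the one its reads came from.

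Zfp868: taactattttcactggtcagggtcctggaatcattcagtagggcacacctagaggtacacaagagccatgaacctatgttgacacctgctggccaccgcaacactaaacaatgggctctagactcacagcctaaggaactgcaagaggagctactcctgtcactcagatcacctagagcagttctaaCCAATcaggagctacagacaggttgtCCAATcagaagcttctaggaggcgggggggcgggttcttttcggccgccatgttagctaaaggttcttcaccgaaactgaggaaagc
Zfp869: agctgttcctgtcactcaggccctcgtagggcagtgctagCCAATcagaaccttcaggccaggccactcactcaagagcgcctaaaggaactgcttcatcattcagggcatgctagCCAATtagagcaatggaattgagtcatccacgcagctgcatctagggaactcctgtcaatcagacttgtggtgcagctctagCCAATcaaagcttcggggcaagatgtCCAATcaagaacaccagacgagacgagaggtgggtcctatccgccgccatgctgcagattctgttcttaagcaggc
Zfp963: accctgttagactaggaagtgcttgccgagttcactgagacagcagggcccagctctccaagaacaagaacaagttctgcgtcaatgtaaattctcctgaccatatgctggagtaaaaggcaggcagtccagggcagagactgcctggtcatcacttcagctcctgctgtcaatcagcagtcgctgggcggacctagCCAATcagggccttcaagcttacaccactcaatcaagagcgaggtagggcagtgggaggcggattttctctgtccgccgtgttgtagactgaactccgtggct

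CCAAT occurred 2 times in the Zfp868 promoter, 4 times in that of Zfp869 and 1 time in that of Zfp963. Counting both strands, 37.4% of all promoters hold the letters at least once and 1.06% hold them 4 or more times. The promoters were identical in 55.9% to 59.8% of aligned columns.

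Zfp868 fell strongly and evenly. It stood at 301, 320.0 and 298 normalized counts in the knockout and at 1136, 1043 and 1136 in the wild type, a log2 ratio of −1.85 with an adjusted p of 2.24e-43 in the authors' deposited table. Zfp869 rose: 446, 497 and 518 against 316, 343 and 241, a log2 ratio of 0.70 (adjusted p 0.00436 in the authors' deposited table). Zfp963 stood at 66.3, 95.3 and 61.6 against 155, 104 and 138, a log2 ratio of −0.82. Its groups came close, with the highest knockout library at 95.3 and the lowest wild-type library at 104, and 38.0% of its windows are shared with other genes. Zfp868 and Zfp869 share 1.34% and 1.94% of theirs.

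**Figure D4:**
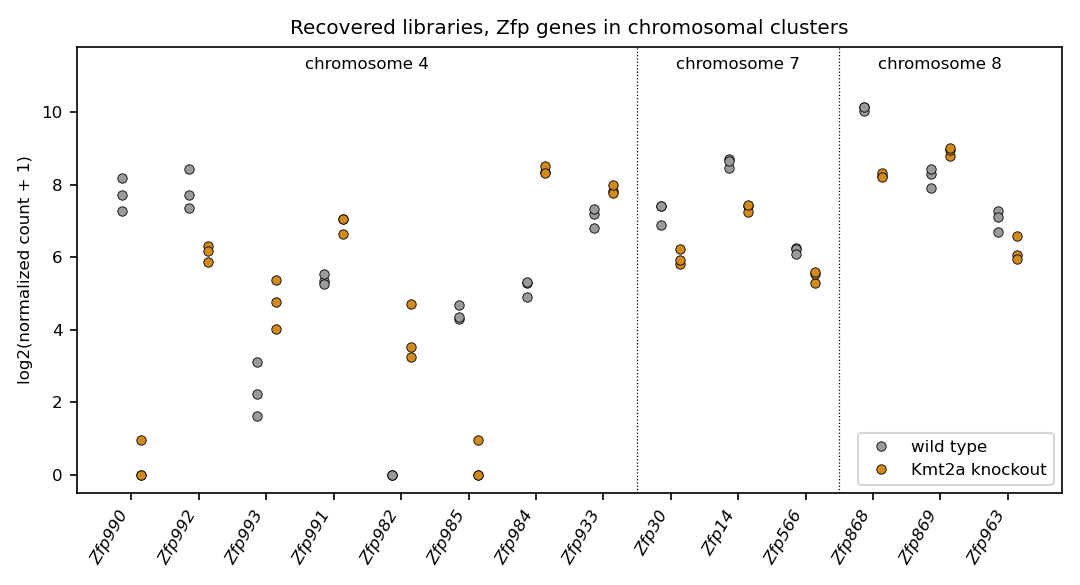
Recovered values of each library, as log2 of normalized counts with 1 added, for the 14 Zfp genes in the chromosome 4, 7 and 8 clusters (grey, wild type; orange, Kmt2a knockout; 3 libraries each). Zfp990 and Zfp985 sit at or near 0 in the knockout, and Zfp982 sits at 0 in the wild type. No gene has overlapping groups, which also holds for 97.0% of all rows with recovered reads.

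Counting runs of 2 genes as well, 4 further neighbour pairs appeared. Zfp93 and Zfp526 on chromosome 7 were both higher, as were Zfp617 and Zfp961 on chromosome 8. Zfp41 (higher) and Zfp707 (lower) on chromosome 15 were split, and so were Zfp185 (higher) and Zfp92 (lower) on the X chromosome.

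Outside the clusters, the genes with the largest rises were Zfp385b, Zfp365, Zfp462, Zfp618 and Zfp41. Zfp385b belongs to a family with matrin-type fingers that bind structured RNA. It stood at 295, 386 and 209 normalized counts in the knockout and at 93.7, 46.3 and 28.2 in the wild type, a log2 ratio of 2.38 (adjusted p 5.95e-06 in the authors' deposited table). Both groups were uneven, but the lowest knockout library was above the highest wild-type library. Zfp365, known as DBZ for its binding to DISC1 in neurons, had no C2H2 finger by the pattern used. It stood at 378, 514 and 212 against 102, 100.3 and 69.8, a log2 ratio of 2.01.

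Zfp462, whose human counterpart is mutated in a developmental syndrome and which acts on heterochromatin in mouse embryonic stem cells, held 33 fingers by the pattern. It stood at 665, 602 and 637 normalized counts against 288, 321 and 155, a log2 ratio of 1.31 (adjusted p 0.000145 in the authors' deposited table). Zfp618 stood at 162, 163 and 169.9 against 96.8, 78.3 and 40.4, a log2 ratio of 1.19. In both genes the knockout libraries were alike and wild-type library c was the lowest. Zfp41 and Zfp273 had log2 ratios of 1.02 and 0.99.

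The largest falls outside the clusters among genes with a mean of at least 50 normalized counts were in Zfp711, Zfp346, Zfp369 and Zfp579. Below that level Zfp92 and Zfp811 had larger falls, with log2 ratios of −2.27 and −1.71 at means of 16.8 and 30.3. Zfp711, an X-linked gene whose human counterpart is mutated in intellectual disability and binds the demethylase PHF8, stood at 30.6, 45.5 and 29.9 normalized counts in the knockout and at 86.4, 83.8 and 84.5 in the wild type. Its log2 ratio was −1.24 (adjusted p 0.000363 in the authors' deposited table). Zfp369, a relative of the neurotrophin receptor interacting factor, stood at 350.4, 412 and 416 against 752, 711 and 654, a log2 ratio of −0.84. Every knockout value of these genes was below every wild-type value, and groups were likewise apart in 97.0% of all rows with recovered reads. Zfp579 stood at 1792, 1794 and 1480.2 against 3059, 2997 and 2913, a log2 ratio of −0.82 (adjusted p 1.29e-07 in the authors' deposited table).

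Of 55 Zfp genes listed for a known role, 10 had a row (18.2%), against 14.97% of all annotated Zfp genes. Of 10 genes that bind GC boxes or promoters, 4 were in the table and all 4 were lower. Of all 59 Zfp genes 57.6% were lower, and of every row 49.5%. The 4 were Zfp219, a partner of SOX9 in cartilage, Zfp384, which binds runs of A and T, Zfp410, known for activating Chd4, and Zfp740. Their median log2 ratio was −0.35, against −0.73 for the 34 lower Zfp genes and −1.12 for the lower genes among every row. Zfp740, the highest of all 59 per kb of gene length (699 normalized counts per kb), stood at 2806, 3158 and 2806 in the knockout and at 3763, 4066 and 3629.9 in the wild type, a log2 ratio of −0.39. The groups were apart in all 4, as in 97.0% of all rows with recovered reads, and no ratio was beyond −0.39.

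Of 13 genes with a role in RNA, ribosomes or splicing, 3 had a row. Zfp385b was higher. Zfp326, a subunit of the DBIRD complex that links RNA polymerase II to splicing, was lower at a log2 ratio of −0.37. Zfp346, a binder of double-stranded RNA, stood at 421, 616 and 453 normalized counts against 1048, 1163 and 708, a log2 ratio of −0.97. Of 10 genes that silence imprinted loci or retrotransposons, 1 had a row: Zfp57, which protects the methylation of imprinting control regions, stood at 522, 564 and 610.4 against 1067, 1097 and 704, a log2 ratio of −0.76 (adjusted p 0.00744 in the authors' deposited table).

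Of 6 genes of adipocyte and mesenchymal differentiation, 1 had a row: Zfp516, which promotes brown fat genes, was higher at a log2 ratio of 0.48. All 4 adipocyte markers in the table were lower, with groups that overlapped, and a link between them and Zfp516 was not tested. Of 10 genes of chromatin complexes the table held Zfp462. No gene of the CCCH RNA-binding list (4 genes, Zfp36 among them) or of the ubiquitin and SUMO list (3 genes) had a row. Zfp609, a partner of Integrator in the mouse brain that none of the lists held, stood at 1477, 1378 and 1895 normalized counts against 951, 1167 and 1152, a log2 ratio of 0.54.

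**Figure D5:**
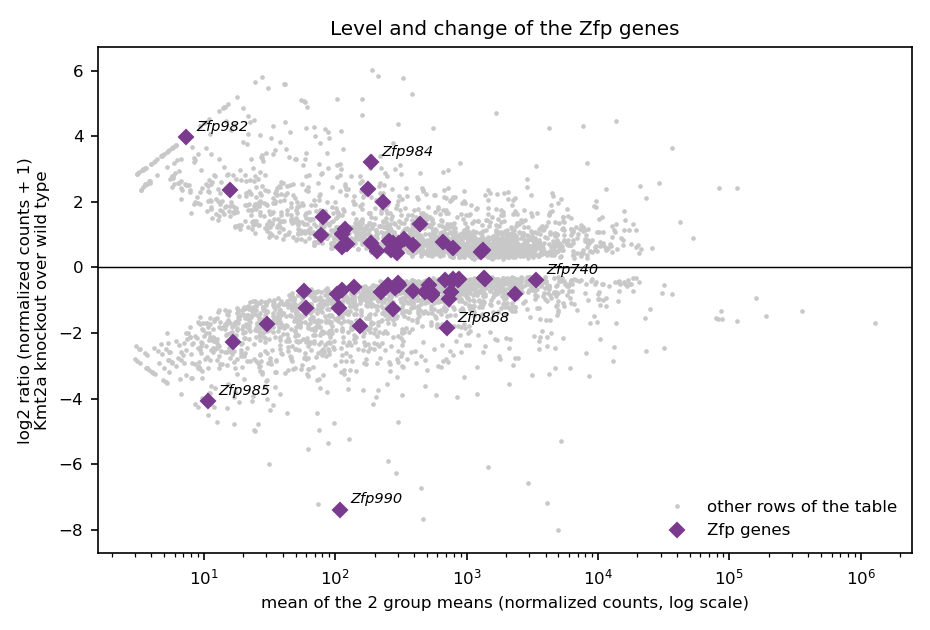
Log2 ratio (Kmt2a knockout over wild type) against the mean of both group means (normalized counts, log axis) for the 59 Zfp genes (purple) and all other rows of the table (grey). None of the 6 Zfp genes with a mean of at least 1000 changed 2-fold, with log2 ratios of −0.39 for Zfp740 and −0.82 for Zfp579. The empty band around 0 is where genes miss the authors' threshold.

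The Zfp proteins were compared by their fingers and by a sequence pattern of the KRAB domain, which the choice of genes did not use. Fingers were counted as C, 2 or 4 residues, C, 12 residues, H, 3 to 5 residues and H in the translated longest coding sequence of each gene. The 59 proteins held 0 to 33 fingers with a median of 9, against a median of 10 over the 394 annotated genes. Zfp365, Zfp330 and Zfp185 held none. Of 40 genes with at least 7 fingers, 17 were higher and 23 lower, and of 16 genes with 1 to 6 fingers, 6 were higher and 10 lower.

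A KRAB pattern was found in 23 Zfp genes, 8 higher and 15 lower, and not in the other 36, 17 higher and 19 lower. The pattern is strict, and a protein whose KRAB domain departs from it counts among the 36. The split is therefore by pattern and may not be one of KRAB against other proteins. The median log2 ratios with and without the pattern were −0.69 and −0.33, and as signed medians they depend on the direction counts. Of the genes with the pattern 11 (47.8%) changed at least 2-fold, and of those without it 7 (19.4%). The chromosome 4 cluster held 7 of the 11 with the pattern. Without it, 4 of 16 genes with the pattern (25%) and 7 of 35 without it (20%) changed at least 2-fold, and the median log2 ratios were −0.70 and −0.34. The genes with the pattern were also read less, with a median level of 124 normalized counts against 465. Whether that bears on the difference was not tested. Of the 160 annotated Zfp genes with the pattern 14.4% had a row, and of the 234 without it 15.4%.

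Gene length went with direction in the table as a whole. Of the protein-coding rows longer than their median of 4025 bases, 61.2% were higher, and of those at or below it 47.9%. Of the 32 Zfp genes above that length 14 were higher (43.8%), and of the 27 at or below it 11 (40.7%). Whether the Zfp genes differ from the other rows in this was not tested.

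Of 32 listed corepressor genes that KRAB proteins work through, 5 had a row (15.6%, against 15.07% of all annotated protein-coding genes). Of these, 2 were higher and 3 lower. Their median log2 ratio of −0.33, as a signed median, depends on these direction counts. Trim28 itself stood at 3065, 2842 and 2997 normalized counts in the knockout and at 3792, 3525 and 4239.6 in the wild type, a log2 ratio of −0.38 (adjusted p 0.0259 in the authors' deposited table). Setdb1, the methyltransferase it recruits, and Morc3 were lower at −0.33 and −0.55. Chd3 and Hdac1, of the NuRD complex, were higher at 0.68 and 0.38. Among zinc finger genes with other symbols (Klf, Zbtb, Zscan, Zkscan, Zc3h, Zfhx and Zfpm), 13 had a row, 5 higher and 8 lower. Their median log2 ratio of −0.46 likewise depends on the direction counts. Klf2 and Klf4, Krüppel-like factors of endothelium and epithelium, were lower, with log2 ratios of −1.19 and −1.18. Klf7, the other Klf gene with a row, was higher at 0.83.

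In the Men1 table none of the 59 genes has a row, and neither does any of the 394 annotated Zfp genes. That table lists 772 genes with p below 0.05 and at least a 2-fold change. For 557 of them it gives no adjusted p, and 1.68% of the 772 have one below 0.05. A Zfp gene without a row may have been unchanged, changed by less than 2-fold or missed the p threshold. The changes in the Kmt2a table and the absence from the Men1 table were therefore not shown to differ. Zscan10, a zinc finger gene of pluripotent cells with another symbol, was the one gene of these families with a row. Its normalized counts were 5.66, 11.6, 12.1 and 11.1 in the Men1 knockout and 1.18, 2.34, 2.90 and 2.07 in the wild type, a log2 ratio of 1.83 from 6 to 16 reads against 1 to 3. The groups did not overlap, as in 35.5% of the rows of that table, which were selected on the same libraries. The authors' deposited table gives it no adjusted p.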

How the data were processed

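RNA-seq libraries of mouse lung were compared between Kmt2a knockout and wild-type samples (3 libraries each) and looked up for Men1 (4 each). Tools named in the submitters' processing notes, without their roles, are DESeq2 1.16.1, featureCounts 1.5.0-p3 and HISAT2 2.0.5, and the builds are mm10 and GRCm38. The library kit keeps no strand, so overlapping and antisense genes cannot be told apart. The deposited Kmt2a table gives a signal per group, the mean of normalized counts, and the Men1 table raw counts and normalized counts (a signal) per library. The log2 fold changes and the p-values and adjusted p-values are the authors', as deposited. The wild-type column of the Kmt2a table was taken as the Kmt2a wild-type group, which the table does not state. In the Men1 table, 2 columns matched no sample and were not used.

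The call was the authors' adjusted p below 0.05 with the sign of their fold change, since both tables hold selected genes only. Reads were recovered from means up to 5000 by finding the whole numbers of reads that give the printed digits. All 3719 knockout and 3748 wild-type means had 1 solution. On 150 simulated means a group all true reads were found, and of values without whole reads 1 (knockout) and 0 (wild type) were resolved. edgeR 4.0.16 (quasi-likelihood, the authors' size factors) was run on the 3644 recovered genes, with p at or below the authors' largest p of 0.00917 as the call. On simulated counts for this comparison (3644 genes) it called 76% of 100 changes of 2-fold, 94% of 100 of 4-fold and 0.813% of unchanged genes. Counting intervals are 95% exact and cover counting error only.

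All 59 gene IDs matched GENCODE M21 (GRCm38) and 54 had the same coordinates. Fingers and the KRAB pattern (F, any, D, V, then EW, any 2 residues, L within 12 residues) come from coding sequences translated here, as no protein table was given. RefSeq promoters were found for 46 of the 59. Named genes are the 8 with the most positive and the 8 with the most negative deposited fold change at a mean of at least 50, the 6 with the highest mean, the cluster and role list members and the corepressors in the table. Genes outside this rule are named where a count is small or a fall is large, after their values were seen. The genes and lists were chosen with earlier results of these data known.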

Additional observations from a re-analysis of the deposited data

Results flagged for a closer look

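In the Men1 knockout, Zscan10 stood at 5.66 normalized counts in 1 library (KO-6075, 6 reads), far from the other 3 libraries, which lay between 11.1 and 12.1. The gap was wide against the range of the group by Dixon's criterion for 4 samples, which chance passes in about 1 of 20 groups. The low library still lay above the highest wild-type library at 2.90.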

How the results depend on the processing

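The counts of 25 higher and 34 lower Zfp genes fell with stricter rules. At least 2-fold left 9 and 9, and an adjusted p below 0.01 left 16 and 19. A mean of at least 200 left 14 higher. Genes above the median length counted 14 higher and 18 lower, and those at or below it 11 and 16. edgeR with the authors' size factors called 17 and 25, which is 71.2% of the Zfp genes against 69.5% of all 3644 genes. With TMM it called 15 higher and 26 lower, as it did after a filter on low counts, which was added after the data were seen. DESeq2 on the same reads called 24 and 33. Leaving out each library in turn, also added later, edgeR called 9 to 15 higher and 10 to 19 lower, with fewer samples in the fit. Against 17 and 25, every left-out library but wild-type library c moved at least 1 of the counts by over 1.5 times. By the sign of the ratio alone the counts remained 25 and 34, which groups without overlap must give.

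With gaps of at most 200 kb there was 1 cluster with 3 genes, in place of 3 with 14, and with 2 genes a cluster there were 7 with 22. Of 255 alternatives for the 32 named genes, 249 left the log2 ratio within the replicate spread and none reversed it. The 6 that moved it were pseudocounts, in Zfp982, Zfp984, Zfp985 and Zfp990: with 10 added, Zfp990 was at −4.46 and Zfp982 at 1.31. Without the chromosome 4 cluster, added later, the genes with the KRAB pattern changed at least 2-fold went from 11 to 4. The bound of Zfp982 fell to 8.44 to 9.16 without library c of the knockout or any wild-type library. No paired analysis was possible because the groups share no replicate number. The alternatives for Zfp genes in the Men1 table gave no value, as none has a row. Depth limits Zfp982, Zfp985 and Zfp993, which rest on few reads.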
